A study of Mus musculus with 4 samples.

Results

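Fos and Jun family transcripts were examined at every m6A peak assigned to Fos, Fosb, Fosl2, Jun, Junb or Jund in mouse cerebral cortex. Members were taken by gene symbol, which gave 17 of the 33977 peak rows of the deposited table. These rows belonged to 5 of the 6 genes, out of 10415 genes with a row, and no peak of Fos was analysed here. N6-methyladenosine (m6A) is a methyl mark on RNA. It was profiled by MeRIP-seq, which sequences the RNA fragments that an antibody to the mark has bound, so that a peak is a stretch of transcript with many pulled-down reads. One group of mice had repetitive mild traumatic brain injury, abbreviated rmTBI, and the other a sham procedure, with 2 libraries of total cortical RNA in each group. The labels give no strain, age, injury protocol or time after injury. They number the libraries 0 and 1 in each group without saying what the numbers mean or whether they stand for separate mice. The spread behind each p-value is thus that between libraries, and it may be technical.

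The Fos and Jun proteins are basic leucine zipper transcription factors that pair through their zippers and bind DNA as the factor AP-1. Jun proteins pair with each other or with Fos proteins, whereas Fos proteins need a partner. Several of these genes are immediate early genes: in neurons, synaptic activity or injury switches them on through calcium and MAP kinase signals without new protein synthesis, and their messages are usually short-lived. Fos is widely used as a marker of recently active neurons, Jun is known for its part in the response of neurons to axon injury, and Jund is expressed at a steadier level than the others.

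The upstream sequences of Jun, Fosb and Junb are shown because each holds a letter string that resembles an ATF/CREB site. Calcium and stress kinases are known to act on immediate early genes through sites of that kind, and whether these strings work so was not tested. They are the 110 bases before the transcript start in the RefSeq table of GRCm38.p6, written 5' to 3' on the strand of the gene. Capitals mark TGACNTCA in Jun and TGACGC in Fosb and Junb.
Jun, chr4:95052223-95052332, minus strand: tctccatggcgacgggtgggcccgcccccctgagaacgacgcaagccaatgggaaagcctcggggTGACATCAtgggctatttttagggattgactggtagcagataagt
Fosb, chr7:19310046-19310155, minus strand: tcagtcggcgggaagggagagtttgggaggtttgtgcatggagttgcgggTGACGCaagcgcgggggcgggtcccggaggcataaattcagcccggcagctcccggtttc
Junb, chr8:84978749-84978858, minus strand: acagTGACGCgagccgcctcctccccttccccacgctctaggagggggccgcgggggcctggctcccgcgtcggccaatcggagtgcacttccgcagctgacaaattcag

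TGACNTCA was searched on both strands of the 250 bases before each start, and 7.49% of the 32851 RefSeq windows held it. TGACGC, searched in the same way, was held by 6.12% of the windows. The string in Jun lay 45 to 38 bases before the start, that in Fosb 60 to 55 bases before it and that in Junb 106 to 101 bases before it. For Fosb the start in that table lies inside the gene span. Fos held TGACGT 66 to 61 bases before its start, a string in 6.47% of the windows. In the 110 bases before their starts, Fosl2 and Jund held none of TGACNTCA, TGACGC and TGACGT on either strand. TGACTCA, the consensus AP-1 site, TGACGTCA and the CArG box bound by SRF, held by 4.46%, 1.55% and 1.47% of the windows, matched in none of the 6 family windows, which says only that these letters are not in this stretch. Strings that share letters overlap, as TGACGT does with TGACGTCA. The strings found differ between the genes, and the share of windows that hold any of them was not counted. A match of letters is a description and does not show that a factor binds there.

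One stretch inside a peak is shown because it carries GGACT, a form of the sequence that the m6A methyltransferase is known to prefer, here in capitals.
Jun, chr4:95052184-95052213, minus strand: aggctggataaGGACTcagagttgcactga

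GGACT occupies transcript bases 21 to 25 of Jun and lies inside the peak at its start. It occurred in the first 50 transcript bases of 5.76% of the RefSeq windows. Junb also held it, at bases 33 to 37, outside the peaks of that gene.

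The 17 rows were stacked from peaks called in rmTBI (8 rows) and peaks called in sham (9 rows), and many describe the same stretch of RNA. On the same strand they covered 12 distinct positions. Of the 8 rmTBI-set rows, 5 overlapped a sham-set row by at least 1 base, and so did 5 of the 9 sham-set rows, while 0 pairs had the same start and end. Rows that overlap count the same reads, so they are not independent. The authors classed 8 rows as coding, 8 as 3' UTR and 1 as 5' UTR. The 2 larger classes each held 47.1% of the family rows, against 50.7% (coding) and 39.5% (3' UTR) of all tested rows. The median row spanned 212 bases, against 331 for all rows. Of the family rows, 16 of 17 overlapped the span of their gene in RefSeq GRCm38.p6, and positions are given as the deposited table has them, read as GRCm38.

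**Figure D1:**
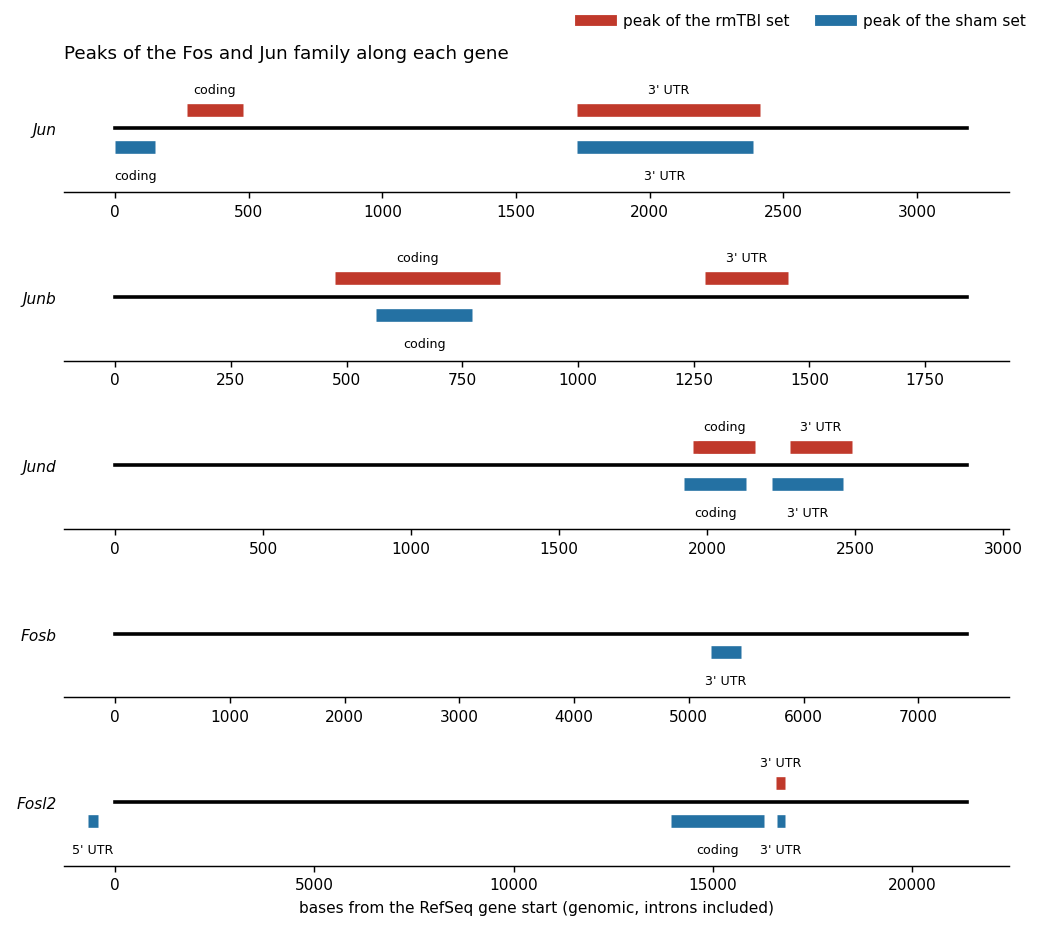
Position of each of the 17 family peak rows along its gene, in bases from the RefSeq start of the gene, with colour for the set in which the peak was called. The minus-strand row of Jund lies within the coding rows of that gene. Jun, Junb and Jund have overlapping or neighbouring rows of both sets, whereas the only row of Fosb and the 5' UTR and coding rows of Fosl2 come from the sham set.

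Absence of a gene from a set cannot be read from these rows, because the highest deposited peak number is 28375 for rmTBI, with 16034 rows used here, and 28022 for sham, with 17943 rows. At Fos, on chromosome 12, 3 peak numbers of the rmTBI set between the neighbouring genes had no row, and 0 of the sham set. At Fosb the rmTBI set had 3 such numbers, between the rows of Gipr and Cd3eap, and they may belong to other genes that lie between these.

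Library totals over the peaks were 13753600 and 26888072 counts in rmTBI and 14437317 and 26356562 counts in sham, for libraries 0 and 1 in that order, so the libraries numbered 1 are the deeper ones. All values below keep the order of library 0, then library 1. Levels are TMM-scaled CPM, that is, counts divided by the scaled library size, and per kilobase of peak where genes are compared. A set of defining markers of cortical neurons (9 of 9 with a row) summed to 1170.3 and 1049 CPM in rmTBI and 861 and 811 CPM in sham over the highest peak of each gene, so the markers of the labelled tissue were present. Several marker lists of other regions and cells stood at other levels in rmTBI than in sham. Thalamic markers (8 of 9 with a row) summed to 82.9 and 102 CPM in rmTBI and 492 and 553 CPM in sham, and striatal markers (5 of 6) to 626 and 599 CPM in rmTBI and 1158 and 1137 CPM in sham. Oligodendrocyte markers (6 of 7) summed to 398 and 355 CPM in rmTBI and 579 and 541 CPM in sham. Choroid plexus and ependymal markers (4 of 6) summed to 12.6 and 12.1 CPM in rmTBI and 39.6 and 40.9 CPM in sham. Microglial markers (6 of 6) summed to 49.7 and 51.5 CPM in rmTBI and 37.8 and 46.4 CPM in sham. The part of these differences in the results below was not tested. In such bulk libraries fewer cells of a type and less RNA per cell cannot be told apart, and neither can methylation and transcript abundance if all 4 libraries carry the antibody, as the labels say. The log2 values that the authors deposited follow how far library 1 stood above library 0 in rmTBI compared with sham, as described further on. A contrast of pulled-down over input RNA would have that form, and whether number 0 or 1 is an input library cannot be settled from the files. If it were, each mean, SD, fold change and call over 2 libraries would mix both kinds, and only the values within one number would compare like with like.

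Between rmTBI and sham, no family peak passed the test across all peaks. The coding peaks of Junb had the highest fold changes of the family, and the Jund coding peaks the lowest. All 17 rows passed the filter on low counts. Of them, 0 were called at an adjusted p under 0.05 by edgeR's quasi-likelihood test (Benjamini-Hochberg), against 0.0868% of all peaks (29 of 33415). At an unadjusted p under 0.05 the edgeR test gave 1 family row and 948 rows in all, and DESeq2 called 0 family rows, with 0 at an unadjusted p under 0.05. With 2 libraries against 2, an exact permutation test of a single value cannot go below p = 0.333. The log2 fold change of rmTBI over sham was above 0 at 11 of the 17 rows (64.7%), against 52.6% of all rows. Its median over the family rows was 0.07, against 0.02 over all rows, and it ranged from -0.32 to 0.71.

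Jun encodes the founding AP-1 subunit, a strong activator that Jun N-terminal kinases phosphorylate, and it had the highest counts of the family. Its 3' UTR peak of the rmTBI set, at chr4:95049808-95050494 on the minus strand, held 507 and 2414 counts in rmTBI and 504 and 2298 counts in sham. These are 38.4 and 86.8 CPM in rmTBI and 35.9 and 84.1 CPM in sham. The level was low in library 0 and high in library 1 of both groups, which overlapped. The means were 62.6 ± 34.2 CPM in rmTBI and 60.0 ± 34.0 CPM in sham (SD, n = 2 libraries each), and the log2 fold change was 0.06 (SE 0.49). That value changed sign when a library was left out, to -0.65 without rmTBI library 1 and -0.44 without sham library 0. Each of those fits sets a group with both numbers against a group with only 1 of them. Within number 0 the log2 fold change was 0.10 and within number 1 it was 0.05, so the sign was the same. The sham-set peak of the same 3' UTR, at chr4:95049837-95050494, shares nearly all of these reads and had a log2 fold change of 0.07 (SE 0.49).

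The other Jun peaks lay near the start of the gene. The sham-set peak at chr4:95052072-95052222, which covers the stretch with GGACT printed above, is classed as coding although its edge is the first base of the RefSeq transcript. It held 13.6 and 25.6 CPM in rmTBI and 16.3 and 25.9 CPM in sham. Its log2 fold change was -0.10 (SE 0.37). A further coding peak of the rmTBI set, at chr4:95051744-95051954, held 6.14 and 5.22 CPM in rmTBI and 7.49 and 5.45 CPM in sham, with a log2 fold change of -0.18 (SE 0.29). The groups overlapped at both.

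Junb encodes a Jun protein that activates less strongly than Jun on simple AP-1 sites and can hold Jun back. Its coding peak of the rmTBI set, at chr8:84977917-84978273 on the minus strand, held 104 and 346 counts in rmTBI and 90 and 166 counts in sham, which are 7.88 and 12.4 CPM in rmTBI and 6.42 and 6.07 CPM in sham. Both rmTBI libraries lay above both sham libraries, and rmTBI library 1 stood highest. The means were 10.2 ± 3.23 CPM in rmTBI and 6.24 ± 0.244 CPM in sham (SD, n = 2 libraries each). The log2 fold change was 0.71 (SE 0.30) with an unadjusted p of 0.0481 and an adjusted p of 1 (edgeR quasi-likelihood test, Benjamini-Hochberg). Within number 0 it was 0.30 and within number 1 it was 1.03, and without rmTBI library 1 it was 0.34, so much of its size comes from that library. With library number as a block in the fit, the log2 fold change was 0.74 (SE 0.18), with an adjusted p of 0.000732 by the edgeR quasi-likelihood test, on 1 residual degree of freedom. The block fit called 3553 of 33415 rows, so its p-values, here and below, are not read as strength of evidence.

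The sham-set row of Junb within that stretch, chr8:84977976-84978184, held 5.16 and 11.3 CPM in rmTBI and 4.85 and 5.63 CPM in sham. The groups overlapped there, because rmTBI library 0 lay below sham library 1. Its log2 fold change was 0.67 (SE 0.39), and it was -0.03 without rmTBI library 1. With the block it was 0.66 (SE 0.19, edgeR quasi-likelihood adjusted p = 0.00884). The 3' UTR peak of Junb, at chr8:84977294-84977473, held only 22 and 49 counts in rmTBI and 23 and 24 counts in sham. That is 1.67 and 1.76 CPM in rmTBI and 1.64 and 0.878 CPM in sham, with both rmTBI libraries above both sham libraries and rmTBI library 0 only just above sham library 0. Its log2 fold change was 0.49 (SE 0.52).

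These 2 Junb rows, the rmTBI-set coding peak and the 3' UTR peak, were the only family rows whose groups did not overlap with rmTBI above sham. They are 2 of 17 rows, against 12.3% of all rows, so the share was near the background. In the other direction there were 0 of 17, against 12.3% of all rows. The 2 Junb coding rows, which share reads, were the only family rows called with the block, both higher in rmTBI, where 5.42% of all rows were called higher.

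Jund encodes the most evenly expressed Jun protein, which is known to restrain growth in fibroblasts. Its coding peak of the rmTBI set, at chr8:70699692-70699902 on the plus strand, held 13.8 and 10.2 CPM in rmTBI and 17.3 and 12.1 CPM in sham. Each rmTBI library lay below the sham library of the same number, while the groups overlapped. The means were 12.01 ± 2.53 CPM in rmTBI and 14.7 ± 3.72 CPM in sham (SD, n = 2 libraries each), and the log2 fold change was -0.29 (SE 0.30). The sham-set row at chr8:70699662-70699872 had a log2 fold change of -0.32 (SE 0.29). With library number as a block the rmTBI-set row had -0.28 (SE 0.14, edgeR quasi-likelihood adjusted p = 0.26). The sham-set row had -0.31 in that fit (SE 0.15, edgeR quasi-likelihood adjusted p = 0.197), so neither was called.

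The remaining coding row of Jund, in the rmTBI set at chr8:70699708-70699880, carries the minus strand although the gene lies on the plus strand. Its counts of 175 and 280 in rmTBI and 233 and 324 in sham stood beside 182 and 284 in rmTBI and 243 and 330 in sham at the plus-strand row of that set. The largest log2 ratio between the 2 rows in any library was 0.0605 in size. Over the 120 such opposite-strand pairs of the table with at least 50 counts in every library and 80% overlap, 95.8% agreed within 0.2 on the log2 scale in every library. Reads of Jund and of a transcript on the other strand can therefore not be told apart in these counts.

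The 3' UTR of Jund had a sham-set peak at chr8:70699960-70700199, with 3.94 and 5.50 CPM in rmTBI and 3.92 and 5.60 CPM in sham. The overlapping rmTBI-set peak at chr8:70700020-70700229 held 3.87 and 5.07 CPM in rmTBI and 3.49 and 5.08 CPM in sham. The log2 fold changes were -0.01 (SE 0.32) and 0.06 (SE 0.32). Neither exceeded its error, and the groups overlapped at both peaks.

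**Figure D2:**
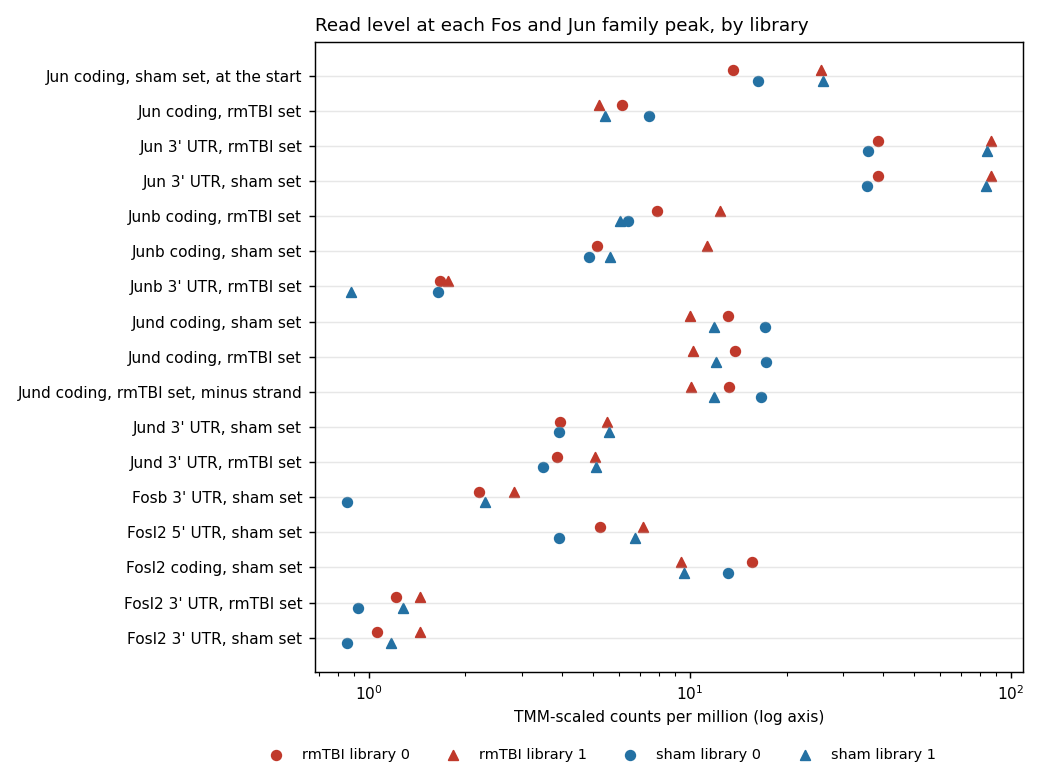
TMM-scaled CPM on a log axis at each family peak row in each of the 4 libraries, rmTBI before sham, with the label number shown by the marker. The Jun 3' UTR and start peaks split by library number in both groups, and at the rmTBI-set coding peak of Junb both rmTBI libraries lie above both sham libraries.

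Among the Fos proteins, FosB is known for a truncated form, made by alternative splicing, that accumulates in neurons after repeated stimulation. Its single row, a 3' UTR peak of the sham set at chr7:19304660-19304929 on the minus strand, held 29 and 79 counts in rmTBI and 12 and 63 counts in sham. These are 2.20 and 2.84 CPM in rmTBI and 0.856 and 2.30 CPM in sham, where sham library 0 stood below the other 3 and the groups overlapped. The means were 2.52 ± 0.455 CPM in rmTBI and 1.58 ± 1.02 CPM in sham (SD, n = 2 libraries each). The log2 fold change was 0.63 (SE 0.51). It was 1.33 within number 0 and 0.30 within number 1, and it was 0.13 without sham library 0. The peak does not tell the full-length form from the truncated one.

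Fosl2 encodes Fra-2, a Fos protein that lacks the strong activating region of Fos. Its coding row of the sham set, chr5:32150422-32152745 on the plus strand, spans 2324 bases of genome and may hold introns. It held 15.6 and 9.39 CPM in rmTBI and 13.2 and 9.62 CPM in sham, with the groups overlapping. Its log2 fold change was 0.13 (SE 0.33), and the sign turned without rmTBI library 0 (-0.29) or sham library 1 (-0.09). The 5' UTR peak at chr5:32135800-32136041 ended 431 bases before the RefSeq start of the gene. It held 5.23 and 7.16 CPM in rmTBI and 3.92 and 6.77 CPM in sham, a log2 fold change of 0.21 (SE 0.34).

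The 3' UTR of Fosl2 had overlapping peaks of both sets. The rmTBI-set peak at chr5:32153044-32153285 held 1.21 and 1.44 CPM in rmTBI and 0.927 and 1.28 CPM in sham, and the sham-set peak at chr5:32153074-32153285 held 1.06 and 1.44 CPM in rmTBI and 0.856 and 1.17 CPM in sham. Their log2 fold changes were 0.25 (SE 0.52) and 0.30 (SE 0.54). No library held more than 40 counts at either peak, and neither value exceeded its error.

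**Figure D3:**
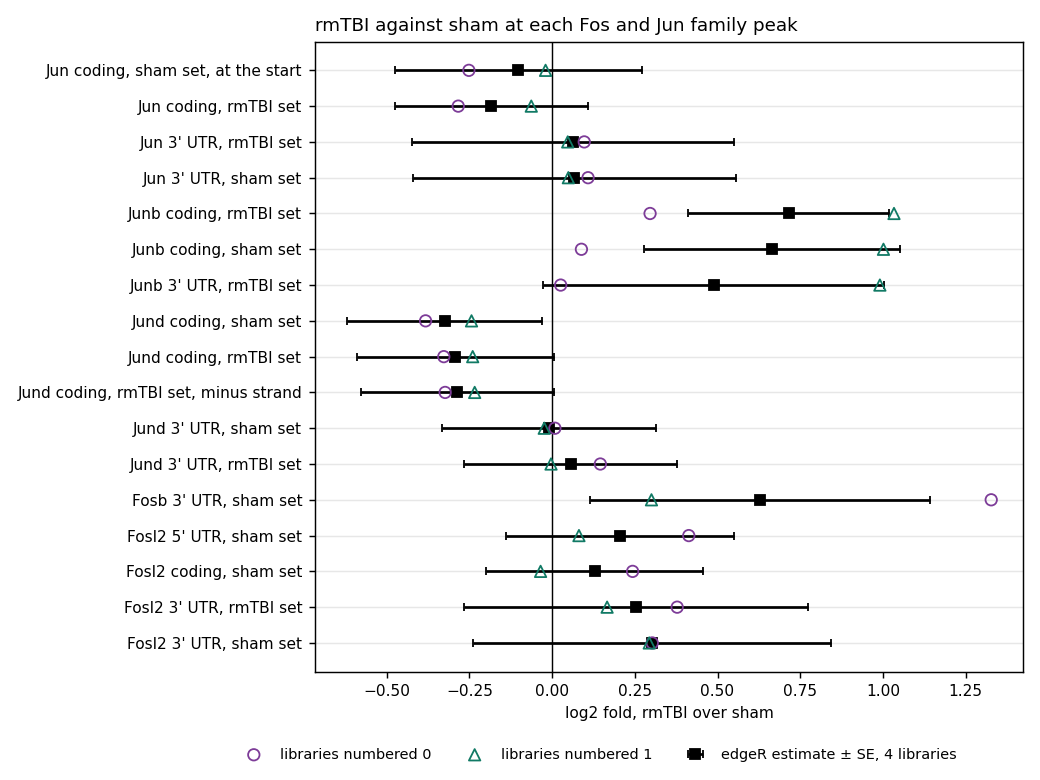
Log2 fold change of rmTBI over sham at each family peak row (point) with its standard error (bar), and the values within library number 0 and within number 1 as small markers. The coding rows of Junb lie highest and the Jund coding rows lowest, and the bars of all rows cross 0 except those of Fosb, the coding rows of Junb and the sham-set coding row of Jund.

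Levels per kilobase were highest at the start and 3' UTR peaks of Jun. The peak at the Jun start had 129.9 ± 55.9 CPM per kilobase in rmTBI and 139.7 ± 45.3 in sham, and the Jun 3' UTR peak of the rmTBI set had 91.2 ± 49.8 in rmTBI and 87.3 ± 49.5 in sham (SD, n = 2 libraries each). These neighbours in the order did not differ beyond their spread. The Jund coding peak of the sham set had 54.9 ± 10.3 in rmTBI and 68.7 ± 17.5 in sham, which lay within the spread of the Jun 3' UTR peak. The Junb coding peak of the rmTBI set had 28.5 ± 9.04 CPM per kilobase in rmTBI and 17.5 ± 0.68 in sham. The sham-set row of that Junb stretch had 39.4 ± 20.8 in rmTBI and 25.1 ± 2.65 in sham. The Jun coding peak of the rmTBI set had 26.9 ± 3.10 in rmTBI and 30.7 ± 6.82 in sham, and the 5' UTR peak of Fosl2 had 25.6 ± 5.63 in rmTBI and 22.1 ± 8.31 in sham. The order of these Junb, Jun and Fosl2 peaks was not the same in the groups. The Fosb 3' UTR peak (9.33 ± 1.69 in rmTBI and 5.85 ± 3.79 in sham) and the Fosl2 3' UTR peak of the rmTBI set (5.48 ± 0.66 in rmTBI and 4.56 ± 1.03 in sham) stood at the low end. For comparison, rows under 1000 bases had a median of 19.9 CPM per kilobase in sham over all genes, with quartiles of 8.86 and 44.3. In sham the Jun start peak, the Jun 3' UTR peaks and the Jund coding peaks lay above that upper quartile, and the 3' UTR peaks of Fosb, Fosl2 and Junb below the lower one.

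At several peaks the libraries numbered 1 and 0 differed by more than the groups did. At the Jun 3' UTR peak of the rmTBI set, library 1 stood 2.26-fold above library 0 in rmTBI and 2.34-fold in sham, at percentiles 94.8 and 96.6 of all rows. At Fosb the log2 ratio of library 1 over library 0 was 0.35 in rmTBI and 1.38 in sham. Over the 17 rows the median log2 ratio was 0.38 in rmTBI and 0.42 in sham, against 0.04 and 0.01 over all rows.

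The medians of the 3' UTR and coding rows lay on opposite sides of 0, while single rows of each class did not all follow. Of the 8 family rows in 3' UTRs, 8 had a ratio above 0 in rmTBI and 7 in sham, with medians of 0.39 and 0.52, whereas all 3' UTR rows had medians of 0.19 and 0.14. Of the 8 coding rows, 3 lay above 0 in rmTBI and 2 in sham, with medians of -0.31 and -0.46, against -0.06 and -0.08 for all coding rows. No test was run on these ratios, since each rests on 1 library over 1 library and the rows share reads. In the comparison of rmTBI with sham, 7 of the 8 rows in 3' UTRs had a log2 fold change above 0, against 51.5% of all 3' UTR rows (medians 0.16 and 0.01). Of these 3' UTR values only that of Fosb exceeded its SE. Of the 8 coding rows, 3 lay above 0, against 52.9% of all coding rows (medians -0.14 and 0.02). The 5 coding rows below 0 were 3 rows of one stretch of Jund and 2 rows of Jun, and the difference between the classes was not tested.

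**Figure D4:**
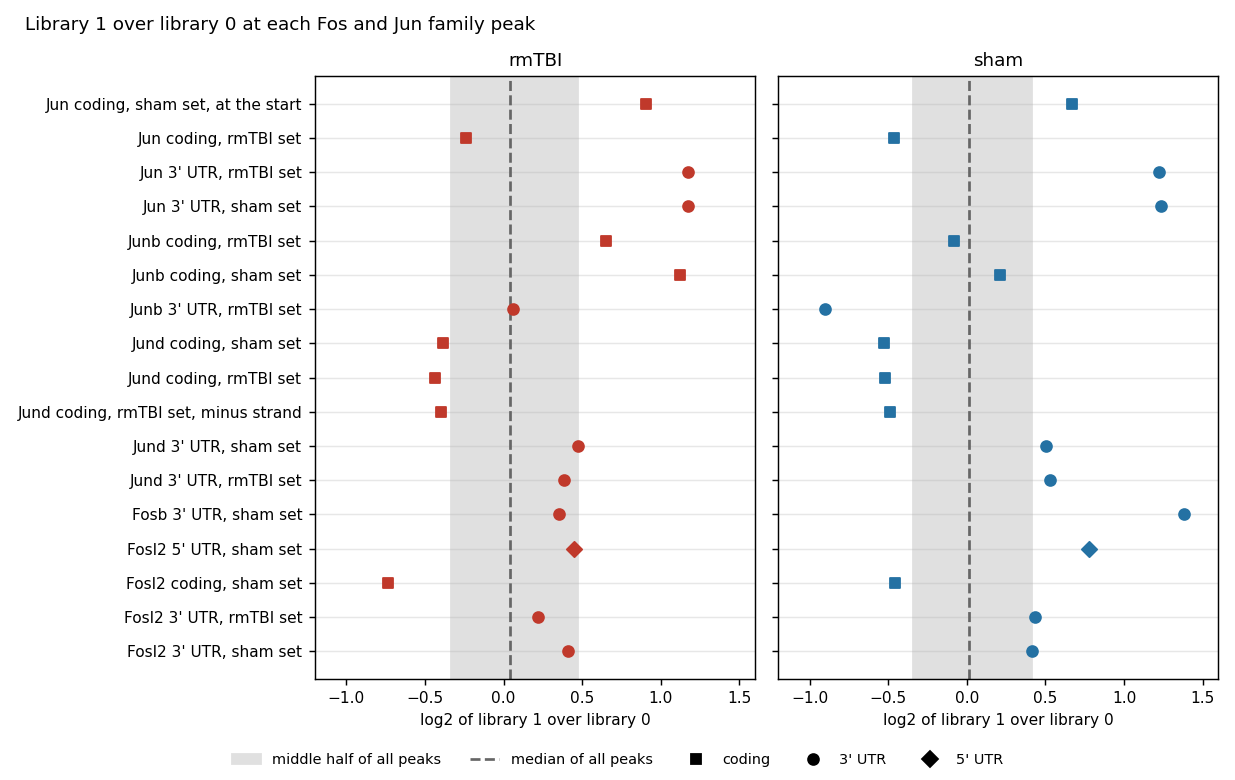
Log2 ratio of library 1 over library 0 at each family peak row, in rmTBI (left) and sham (right), with the marker giving the class of peak. The shaded band is the interquartile range and the dashed line the median of all rows. The Jun 3' UTR rows lie above 1 in both groups and the Jund coding rows below 0 in both.

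The log2 values in the authors' deposited table followed a different contrast. Across all rows, which are not independent replicates, they correlated with the library 1 over library 0 ratio in rmTBI minus that in sham (Pearson r = 0.99), and with the mean of rmTBI over sham at r = -0.20. At Junb the authors' deposited table gave 1.03 for the 3' UTR peak, 0.78 for the rmTBI-set coding peak and 0.96 for the sham-set one. For Fosb it gave -1.01, with the smallest p of the family (0.15), and an FDR of 0.998 for each family row. None of the 17 rows was among the 277 higher or 146 lower rows of the lists in the authors' deposited tables.

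Genes that act with the family were described from lists of known roles, by counts and by the median over genes of each gene's median log2 fold change, beside a median of 0.01 over all 10209 genes tested, of which 5202 lay above 0. Across the 7 lists, 0 of 364 peaks were called by edgeR, with 8 at an unadjusted p under 0.05, and DESeq2 also called 0. Over all 33415 rows edgeR called 29 (0.0868%), with 948 at an unadjusted p under 0.05, and DESeq2 called 131 of 33977. With so few calls over all rows, the 0 calls say little about these lists.

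Upstream of AP-1, the list of kinases and phosphatases held 12 genes above 0 and 12 below 0 (median -0.00). Rps6ka5, which encodes the nuclear kinase MSK1 that phosphorylates CREB, had 7.35 and 9.64 CPM in rmTBI and 11.7 and 12.7 CPM in sham at its highest peak. Both rmTBI libraries lay below both sham libraries, with a log2 fold change of -0.51 (SE 0.27), which was called only with library number as a block (edgeR adjusted p = 0.0183). Of the transcription factors that drive Fos and Jun genes, 9 of 12 lay above 0 (median 0.09). Crem, a CREB relative, stood at 0.41 (SE 0.60), which did not exceed its error. It was not called with the block either (edgeR adjusted p = 0.879).

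After transcription, AU-rich messages such as those of the family are turned over by RNA-binding proteins. The list of such factors had 6 of 12 genes above 0 (median 0.00), and Zfp36l1, a decay factor, had a log2 fold change of 0.36 (SE 0.28) at its highest peak. The median over the 4 peaks of that gene was -0.05, so it counts among the genes below 0. Its highest peak was not called with the block (edgeR adjusted p = 0.449). Of the regulators of Fos and Jun protein, 5 of 6 lay above 0 (median 0.11). Trib1, a pseudokinase adaptor of the ubiquitin ligase COP1, had 4.17 and 7.37 CPM in rmTBI and 2.42 and 3.73 CPM in sham. Both rmTBI libraries lay above both sham libraries, and the log2 fold change was 0.90 (SE 0.38), with an unadjusted p of 0.0459 and an adjusted p of 1 by the edgeR quasi-likelihood test, or 0.0024 with the block.

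Among other AP-1 and bZIP partners, 14 of 18 genes lay above 0 (median 0.15). Atf3, a stress-induced bZIP factor that can pair with Jun, had 1.44 and 2.37 CPM in rmTBI and 1.43 and 1.02 CPM in sham. Both rmTBI libraries lay above both sham libraries, rmTBI library 0 only just. Its log2 fold change was 0.69 (SE 0.50), with 0.02 within number 0 and 1.20 within number 1. It was not called with the block (edgeR adjusted p = 0.544).

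Genes reported as AP-1 targets in brain had 9 of 18 above 0 (median -0.01). Penk, the proenkephalin gene, had 449 and 428 CPM in rmTBI and 803 and 774 CPM in sham at a 3' UTR peak. The groups lay far apart, with a log2 fold change of -0.85 (SE 0.19) and an adjusted p of 0.475 (edgeR quasi-likelihood test, Benjamini-Hochberg). With library number as a block its edgeR adjusted p was 8.27e-112. That fit has 1 residual degree of freedom and called 3553 of 33415 rows, so that p-value is not read as strength of evidence. The log2 fold change of Penk was -0.84 within number 0 and -0.86 within number 1. Penk is also one of the striatal markers, whose summed levels differed between the groups as given above, and their part in this value was not tested.

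The other immediate early genes had 19 of 21 genes above 0, with a median of 0.30, and this was the highest median of the 7 lists and the family (0.23 over 5 genes). Within number 0 the median was 0.24 for these early genes and 0.09 for the family. Within number 1 it was 0.52 for these early genes and 0.12 for the family. Btg2, an antiproliferative early gene, had 6.14 and 5.90 CPM in rmTBI and 2.78 and 3.66 CPM in sham at its highest peak. Both rmTBI libraries lay above both sham libraries, and the log2 fold change was 0.89 (SE 0.29) with an unadjusted p of 0.0172 and an adjusted p of 1 in edgeR, or 0.00333 with the block. Nr4a1, an orphan nuclear receptor induced by activity, had 10.1 and 11.8 CPM in rmTBI and 6.84 and 7.90 CPM in sham, a log2 fold change of 0.57 (SE 0.26). Its unadjusted p in edgeR was 0.0616, and it was called only with the block (edgeR adjusted p = 0.00915). With the label number as a block, 21 of the 67 rows of these genes were called higher in rmTBI and 0 lower, where 5.42% of all rows were called higher and 5.22% lower. In the same fit 2 of the 17 family rows were called higher and 0 lower. Whether the family and these genes differ was not tested. The 67 rows can share reads, as the family rows do, and the list was chosen with earlier results of these data known. The markers of cortical neurons stood above 0 for 8 of 9 genes (median 0.38), and their part in these values was not tested.

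**Figure D5:**
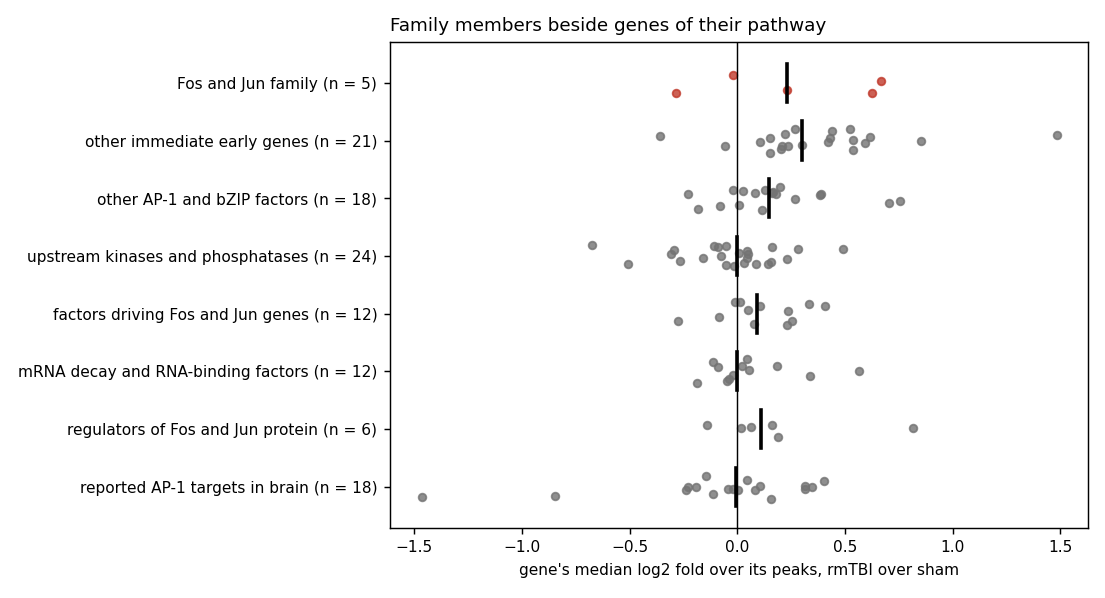
Log2 fold change of rmTBI over sham per gene (points, the median over the peaks of the gene) in the family and in each list of related genes, with the median of each list as a bar and a line at 0. The other immediate early genes lie mostly above 0, and the Fos and Jun genes fall on both sides.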

How the data were processed

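Peaks, counts and classes were used as the authors deposited them. Read counts per peak and library are whole numbers that are not normalized, as the deposited values show. The authors also deposited a log2 fold change with a p-value, raw and adjusted, per row, from a test that is not named. Per the submitters' processing notes, STAR, DESeq2 and the GRCm39 build were used, with no roles given, but the positions match RefSeq GRCm38.p6, where 98.3% of the rows of matched genes overlap the gene. The sources used here name no peak caller or counter and do not say how strand was used.

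Groups came from the labels. Counts of all rows were fitted together with edgeR 4.0.16 (R 4.3.3): filterByExpr, TMM scaling, quasi-likelihood F-test on 2 residual degrees of freedom, and Benjamini-Hochberg adjustment over 33415 rows, with calls at an adjusted p under 0.05. The SE is the log2 fold change divided by the square root of F. Ratios between single libraries add 0.5 counts. The script was tested on simulated data. Alternatives were DESeq2 1.42.0, other scaling and filters, each library left out, the label number as a block, and each peak set alone. Members and lists were chosen with earlier results of these data known. Named genes were every family row, and could be in each list the 3 genes with the smallest unadjusted p at their leading peak, the row of a gene with the highest mean CPM. Some of these genes are not reported here. Promoter windows and strands came from RefSeq tables, and all 6 symbols matched. No genome was used, so sequences of other peaks are not shown.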

Additional observations from a re-analysis of the deposited data

How the results depend on the processing

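The number of family rows called stayed 0 under library-size scaling, DESeq2, both other filters, each library left out and each peak set alone (8 and 9 rows), and it was 2 of 17 with the replicate block. Of the family rows, between 6 (without rmTBI library 1) and 12 had a log2 fold change above 0 when 1 library was left out, 5 of 8 in the rmTBI set alone and 7 of 9 in the sham set alone. Their median ranged from -0.06 to 0.37 over the libraries left out, and it was 0.10 without the minus-strand row of Jund, an alternative chosen after seeing the data. At the leading peaks, leaving out 1 library gave -0.65 to 0.81 for Jun, -0.29 to 0.46 for Fosl2, 0.13 to 1.56 for Fosb, 0.34 to 0.98 for Junb and -0.53 to -0.02 for Jund, where Jun and Fosl2 changed sign. Every such fit sets a group with both library numbers against a group with only 1 of them. Over all rows, the 29 calls became 2 with library-size scaling, 131 with DESeq2, 17 in the rmTBI set alone, and 82 to 122 with 1 library left out. With at least 10 counts in every library edgeR made 0 calls, with 855 rows at an unadjusted p under 0.05. The replicate block gave 3553 calls over all rows (1810 higher in rmTBI) and 51 of 364 in the related lists (39 higher). It moved the leading peak of Junb to 0.74. Deviations of rmTBI library 0 and sham library 0 from their group means correlated at r = 0.48 across rows. With only 2 pairs this does not settle whether the numbers pair the libraries. Shared rows stayed 5 of 8 when 50% of both had to overlap, and were 0 when start and end had to match. The cause of these moves was not tested.

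The Fosb row and the 3' UTR rows of Fosl2 and Junb had 12 to 79 counts in a library and SEs of 0.51 to 0.54, while the Jun 3' UTR peak of the rmTBI set, with 504 to 2414 counts, had an SE of 0.49. With library number as a block the SE was 0.07 at that Jun peak and 0.40 at the Fosb row. In the same fit it was 0.55 at the 3' UTR row of Junb and 0.62 and 0.65 at those of Fosl2. The parts of depth and of library number in these errors were not tested. The labels give all 4 libraries the antibody, do not explain the numbers 0 and 1, and leave unsettled whether one number marks input RNA.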

Other observations

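Since Fos had no row, the profile of Junb over the 4 libraries, a reference chosen after its values were seen, was set against other genes. The measure of likeness was the Euclidean distance of log2 CPM at the leading peak, centred on its mean over the 4 libraries, among 3184 genes whose leading peak lay within 2-fold of the level of Junb. The median distance was 0.911. The 5 nearest genes were Hpcal4 (0.169), Npas4 (0.191), Cckbr (0.196), Htr1f (0.238) and Gm43951 (0.263). Npas4, an activity-induced transcription factor of neurons, had 4.09 and 6.80 CPM in rmTBI libraries 0 and 1 and 3.92 and 3.62 CPM in sham libraries 0 and 1. As at Junb, both rmTBI libraries lay above both sham libraries and rmTBI library 1 stood highest, an order that the choice by likeness favours. Cckbr, a cholecystokinin receptor, had 7.66 and 10.7 CPM in rmTBI and 6.06 and 4.90 CPM in sham. Likeness over 4 libraries is a description, with no test.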
